A study of Mus musculus with 12 samples.

Results

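The comparison covers mouse microglia exposed for 8 h to the amyloid beta preparation labelled oAb, set against microglia exposed for 8 h to a scramble control. Its members are 8 of the 12 RNA-seq libraries of the series, 4 oAb and 4 scramble, chosen by their sample titles, and all 41325 genes of the deposited table. Both groups are IMG cells, an immortalised mouse microglia line, described as strain C57Bl6/J, genotype wild type and of 1 passage, so the libraries differ by label only in the treatment. The series text pairs the abbreviation oAb with the word fibrillar and the abbreviation fAb with the word oligomeric, so the aggregation state of the preparation is left as labelled. No dose is given in the sources used here, and the labels do not say that the 4 libraries of a group came from separate cultures, so the p-values measure the spread between these libraries, which may be technical.

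Microglia are the resident macrophages of the brain. They sense aggregated proteins, microbes and cell debris through scavenger receptors, Toll-like receptors and cytosolic sensors. Toll-like receptors signal through MyD88 and TRIF to the kinases that free NF-kB from its inhibitors, and through interferon regulatory factors to type I interferon, which acts back on the cell through STAT factors and switches on a large set of antiviral genes. Macrophages responding in this way make cytokines, chemokines, nitric oxide, itaconate and prostaglandins, and reshape their receptors and their metabolism.

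The cells carried transcripts shared by microglia and other macrophages. All 16 microglia and macrophage markers examined, among them Csf1r, Itgam, Aif1, Cd68 and Spi1, averaged at least 1 TPM (transcript abundance per gene length, scaled to a fixed total per library), and their summed level was 10951 to 11846 TPM in the scramble libraries and 10129.9 to 11376 TPM in the oAb libraries. Of 10 genes that mark microglia of the brain tissue, 6 reached 1 TPM and their sum was lower in oAb, at 302.0 to 333 TPM in scramble and 121 to 136 TPM in oAb. Within that list Sall1 had no count in any library, and Tmem119 had 1 to 5 counts in each scramble library and none in the oAb libraries. Neuron, T cell, B cell, neutrophil and fibroblast markers stayed under 1 TPM on average for every gene examined, with Snap25, Syt1, Cd3e, Ly6g and Mpo without a count. Some members of other lists did reach 1 TPM. These were Aldoc of 8 astrocyte, Mbp of 8 oligodendrocyte, Flt1, Vwf and Egfl7 of 7 endothelial and Itgax of 6 dendritic cell markers. In those lists 1 astrocyte marker (Aqp4), 5 oligodendrocyte markers (among them Mog and Sox10) and 2 endothelial markers (Cldn5 and Tek) had no count. Every dendritic cell marker had at least 1 count.

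The libraries held 13638721 to 17206861 counts, and 13516 to 13948 genes had at least 1 count. The first principal component took 82% of the variance between the 8 libraries. Scramble 3 was unlike the rest of its group: it correlated at 0.941 to 0.963 with the other controls, against at least 0.981 among scramble 1, 2 and 4, and 0.985 to 0.994 among the oAb libraries. The libraries also fell into 2 sets by where reads of the near-identical pair Timm23 and Gm10273 were counted: Timm23 held 24.4 to 38.5% of the pair's counts in scramble 1, oAb 3 and oAb 4, and 94.6 to 98.4% in the other 5. The labels do not name these sets, so they are called the Gm10273 set and the Timm23 set, and results that differ within a group along this line are given with both. Mitochondrially encoded genes took 4.18 to 4.94% of counts in scramble and 2.73 to 3.37% in oAb.

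At 8 h the oAb libraries differed from scramble across much of the measured transcriptome. Of 11033 genes with enough counts to test, 5761 (52.2%) passed the quasi-likelihood test of edgeR at a Benjamini-Hochberg adjusted p of 0.05. Of these, 2777 (25.2% of all tested) were higher and 2984 (27.0%) lower in oAb. The 8 libraries did not overlap between the groups for 5649 genes (51.2%). Most differences were modest: 3385 of the called genes differed by less than 2-fold and 1597 by less than 1.5-fold. The large ones were mostly rises, with 556 genes (5.04% of all tested) at least 4-fold higher and 308 (2.79%) at least 4-fold lower, and with 220 against 34 at 16-fold. The split between higher and lower calls depends on the scaling of the libraries: scaled by the upper quartile in place of the trimmed mean, 2127 genes were higher and 4015 lower, the share of higher calls moved from 48.2 to 34.6%, and the median of all tested genes moved from -0.07 to -0.24 on the log2 scale. Log2 fold changes below are oAb minus scramble. The standard error (SE) after the ± sign is the size of the change divided by the square root of the edgeR F value. It is approximate and can understate counting error where a group has few counts. Levels are normalised CPM (counts scaled to the library size). Each list count is to be read against the 25.2% and 27.0% of all tested genes.

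**Figure D1:**
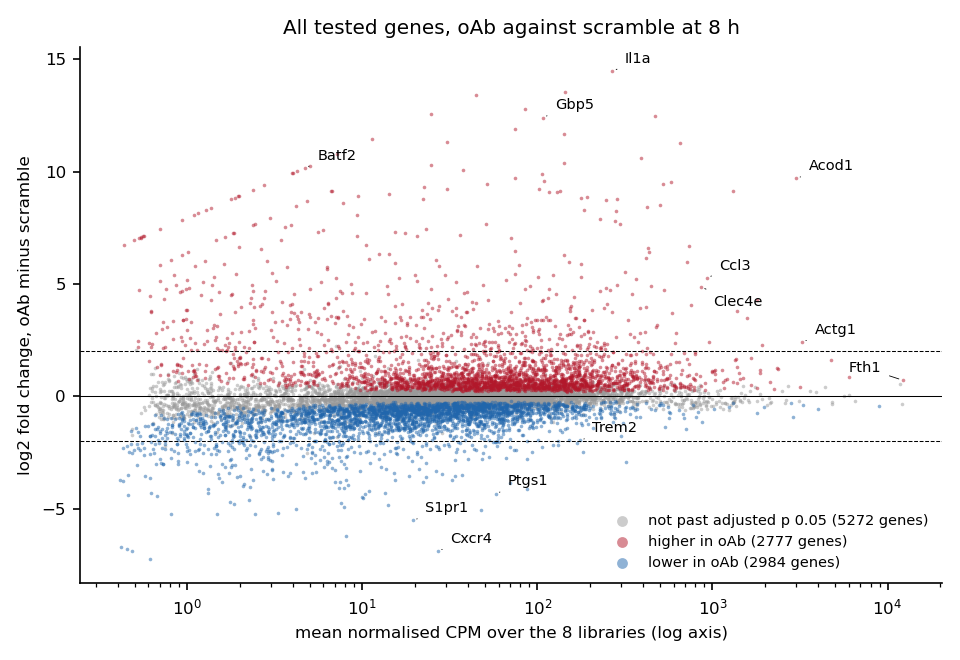
Each point is 1 of the 11033 tested genes, with its mean normalised CPM over the 8 libraries on a log axis and its log2 fold change, oAb minus scramble, on the vertical axis. Red points are the 2777 genes higher in oAb, blue points the 2984 lower and grey points the 5272 not past the threshold, and dashed lines mark 4-fold. Rises of more than 16-fold (220 genes) outnumber falls of that size (34 genes).

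The genes that rose at least 4-fold took a far larger share of the library in oAb. Together these 556 genes made up 0.691 to 0.819% of all TPM in scramble and 9.33 to 9.8% in oAb. The 308 genes that fell at least 4-fold went from 0.469 to 0.574% of TPM in scramble to 0.0717 to 0.0815% in oAb. Ribosomal protein genes held 11.9 to 17.95% of TPM in scramble, highest in scramble 3, and 9.81 to 10.2% in oAb, while mitochondrially encoded genes held 11.1 to 16.4% and 9.14 to 11.5%. These shares sum to a fixed total, so a gain in one class lowers the others. In bulk RNA a lower value for a gene may come from fewer cells that express it or from less RNA per cell, and these cannot be told apart.

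**Figure D2:**
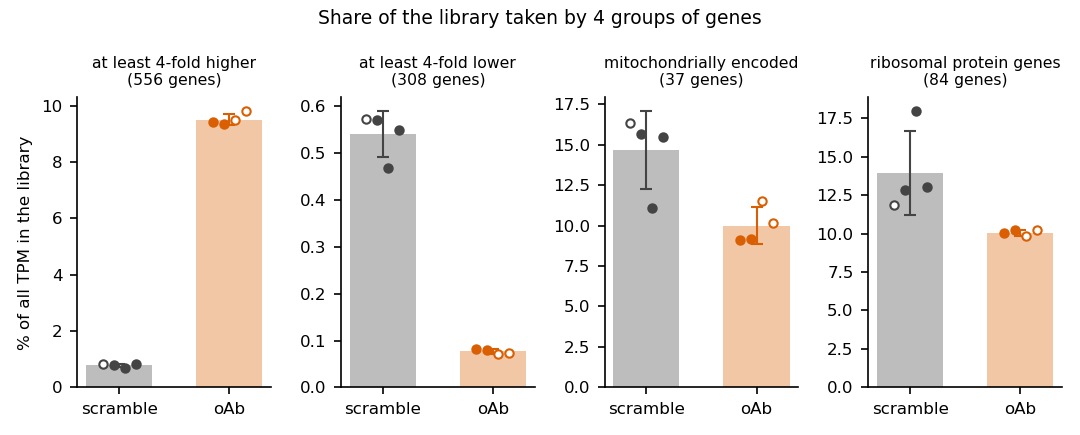
Bars give the mean share of all TPM, in %, taken by 4 groups of genes in the 4 scramble and the 4 oAb libraries, error bars the SD over the 4 libraries, points the single libraries, open points those of the Gm10273 set. The genes at least 4-fold higher were picked by this contrast, so their gain from under 1% to over 9% of TPM shows its size and is no separate test.

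The largest gains in level per transcript length are given with mitochondrially encoded and predicted genes left out. Ccl3, a chemokine that draws monocytes and T cells, was at 181 ± 13.7 TPM (SD, n = 4) in scramble and 6157 ± 382 TPM (SD, n = 4) in oAb. Acod1, the enzyme that makes itaconate from a TCA cycle intermediate, was at 8.17 ± 2.17 TPM (SD, n = 4) in scramble and 5957 ± 469.7 TPM (SD, n = 4) in oAb. Among all genes, Acod1 stood at rank 15 by mean TPM in oAb and at rank 7935 in scramble. The cytoskeletal actins followed, with Actb at 2530.5 ± 334 TPM (SD, n = 4) in scramble and 6988 ± 426 TPM (SD, n = 4) in oAb and Actg1 at 1116 ± 128 TPM (SD, n = 4) in scramble and 5348 ± 395 TPM (SD, n = 4) in oAb, and Actg1 shares 37.4% of its 50-base words with other genes, so part of its reads could be counted elsewhere. Fth1, the ferritin heavy chain, had the largest gain, with 30398 ± 8017 TPM (SD, n = 4) in scramble and 45742 ± 3533 TPM (SD, n = 4) in oAb, but scramble 3 at 41173 TPM lay close below the lowest oAb library, at 42360.0 TPM, and the edgeR call (log2 fold change 0.72 ± 0.26, adjusted p = 0.0428) was lost in 9 of the 17 alternative analyses, among them all those that left out 1 library except scramble 3, where the value was 0.55 to 0.75.

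With the same genes left out, the 5 largest losses in level per transcript length were in genes of high abundance, and 1 of them passed the test. S100a4, a calcium-binding protein linked to cell motility, was at 5058 ± 668 TPM (SD, n = 4) in scramble and 2833 ± 245 TPM (SD, n = 4) in oAb, with a log2 fold change of -0.68 ± 0.18 (adjusted p = 0.0108, edgeR) that was lost as a call within the Timm23 set alone (-0.83, edgeR adjusted p = 0.0683), and 51.7% of its exon length is shared with another gene on the same strand. Eef1a1, the elongation factor that brings aminoacyl-tRNA to the ribosome, was at 15935 ± 936 TPM (SD, n = 4) in scramble and 11249 ± 1078 TPM (SD, n = 4) in oAb, and its log2 fold change of -0.33 ± 0.14 did not pass (adjusted p = 0.0793, edgeR), but did under upper quartile scaling (-0.50, edgeR adjusted p = 0.0161). The ribosomal protein gene Rplp1 and the ribosomal pseudogenes Rps12-ps3 and Rpl10-ps3 had lower mean TPM in oAb and did not pass the test, with log2 fold changes of -0.60 ± 0.42, -0.41 ± 0.25 and -0.40 ± 0.24. These 3 share 60% or more of their words with other genes, so their counts are uncertain, and within the Gm10273 set alone, with its single control, their differences were above 0 (0.19, 0.08 and 0.16 in the same order, none past the threshold). Within each group Rplp1 was lowest in the libraries of the Gm10273 set.

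The 10 largest rises named by rule were genes for cytokines, enzymes and antimicrobial proteins, with transcripts almost absent from scramble. Il1a, coding for interleukin 1 alpha (ENSMUSG00000027399, chr2:129299610-129309972, mm10), was at 0.0535, 0, 0 and 0 CPM in scramble 1 to 4 and 481, 478, 604 and 583 CPM in oAb 1 to 4. A single count in scramble 1 was the only one in the controls, and the ratio of the groups was 34618-fold (95% counting interval 6213 to 1367369), an interval that covers counting error only. Il1b, coding for interleukin 1 beta, was at 0.268, 0.184, 0.0738 and 0.0633 CPM in scramble 1 to 4 and 818, 865, 1036 and 1037 CPM in oAb 1 to 4, a log2 fold change of 12.49 ± 0.26 (adjusted p = 1.64e-09, edgeR). In both genes oAb 3 and oAb 4 lay above oAb 1 and oAb 2, and no control came near any of them.

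Nos2, the inducible nitric oxide synthase (ENSMUSG00000020826, chr11:78920787-78960254), was at 0, 0.0615, 0 and 0 CPM in scramble 1 to 4 and 279, 279, 276 and 308 CPM in oAb 1 to 4, 18392-fold (95% counting interval 3301 to 726485) higher. Csf3, coding for the granulocyte colony-stimulating factor G-CSF (chr11:98701263-98703629), was at 0 CPM in all 4 scramble libraries and 98.8, 102, 71.2 and 84.6 CPM in oAb 1 to 4. With no control count, the rise was at least 1901-fold, taking 3 counts over the 4 controls as the floor, and the 2 oAb libraries of the Gm10273 set were the lower ones. Ccl12 (chr11:82101845-82103400) and Cxcl3 (chr5:90786103-90789600), chemokines for monocytes and for neutrophils, also had no control count and reached 43.4 to 55.1 and 20.7 to 24.4 CPM in oAb, with rises of at least 1061-fold for Ccl12 and at least 487-fold for Cxcl3. Lcn2, which binds bacterial siderophores, was at 0.0535, 0, 0.0738 and 0 CPM in scramble 1 to 4 and 139, 151, 148 and 160.3 CPM in oAb 1 to 4, 4810.5-fold (95% counting interval 1331 to 39728) higher. Cfb, factor B of the alternative complement pathway, was at 0, 0, 0 and 0.0633 CPM in scramble 1 to 4 and 171, 166, 168 and 173 CPM in oAb 1 to 4. Its exons share 79.5% of their length with another gene on the same strand, so its count is uncertain. Gbp5 (chr3:142493978-142522344), a guanylate-binding protein, and Ifi205 (chr1:174011998-174031810), of the interferon-inducible Ifi200 family, completed the 10 and are described with the interferon genes.

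**Figure D3:**
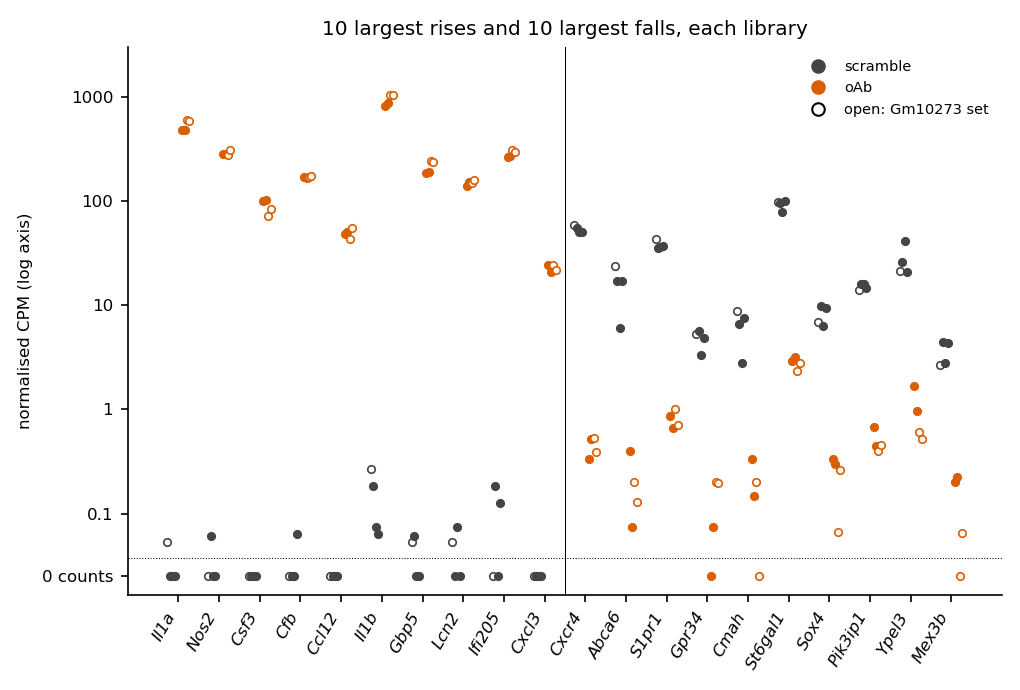
Normalised CPM on a log axis for the 10 largest rises (left) and the 10 largest falls (right) named by rule, 1 point per library, grey for scramble and orange for oAb, open for the Gm10273 set, with libraries without a count drawn on the line marked 0 counts. No oAb point of the 10 rises lies near a control point, and in each of the 10 falls all 4 oAb libraries lie below all 4 scramble libraries.

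The 10 largest falls were receptors, a transporter, glycan enzymes, growth-restraining genes, an RNA-binding protein and a transcription factor. Cxcr4, the receptor for the chemokine CXCL12 (ENSMUSG00000045382, chr1:128588199-128592293, mm10), was at 58.8, 54.5, 50.4 and 50.4 CPM in scramble 1 to 4 and 0.336, 0.521, 0.536 and 0.390 CPM in oAb 1 to 4, and fell by 6.89 on the log2 scale (SE 0.16, edgeR adjusted p = 2.24e-09). S1pr1, a sphingosine 1-phosphate receptor that guides cell exit from tissue (chr3:115710433-115715072), was at 43.4, 35.4, 36.2 and 37.1 CPM in scramble 1 to 4 and 0.874, 0.670, 1.01 and 0.714 CPM in oAb 1 to 4, a log2 fold change of -5.53 ± 0.16 (adjusted p = 6.32e-09, edgeR). Both genes were tight within each group, and the controls were far above every oAb library. Gpr34, a lysophosphatidylserine receptor typical of microglia, was at 5.24, 5.66, 3.32 and 4.81 CPM in scramble 1 to 4 and 0, 0.0744, 0.201 and 0.195 CPM in oAb 1 to 4, a log2 fold change of -5.23 ± 0.44.

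St6gal1, which adds alpha-2,6-linked sialic acid to glycoproteins (chr16:23224740-23360350), was at 98.6, 94.8, 78.2 and 99.00 CPM in scramble 1 to 4 and 2.89, 3.20, 2.35 and 2.79 CPM in oAb 1 to 4, a log2 fold change of -5.04 ± 0.14. Cmah, which makes the N-glycolyl form of sialic acid, was at 8.88, 6.64, 2.81 and 7.53 CPM in scramble 1 to 4 and 0.336, 0.149, 0.201 and 0 CPM in oAb 1 to 4, a log2 fold change of -5.18 ± 0.57, with scramble 3 lowest among its controls. Abca6, a lipid transporter, was at 23.6, 17.2, 5.98 and 16.9 CPM in scramble 1 to 4 and 0.403, 0.0744, 0.201 and 0.130 CPM in oAb 1 to 4, a log2 fold change of -6.23 ± 0.56, and scramble 3 was again the lowest control. Pik3ip1, an inhibitor of PI3 kinase, had a log2 fold change of -4.91 ± 0.18, Ypel3 of -4.84 ± 0.38, the RNA-binding Mex3b of -4.80 ± 0.48 and the transcription factor Sox4 of -5.04 ± 0.33. Sox4 exons overlap a transcript on the other strand over 54.6% of their length, and whether strand was used in the counting is unknown here, so its count is uncertain.

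Surface and endosomal Toll-like receptors moved in both directions. Of the 14 Toll-like receptors and coreceptors tested, 7 were higher and 3 lower, with a median log2 fold change of 0.38. Tlr3, the endosomal receptor for double-stranded RNA, was at 11.99, 10.9, 5.83 and 11.6 CPM in scramble 1 to 4 and 75.1, 73.4, 94.7 and 92.7 CPM in oAb 1 to 4, a log2 fold change of 3.05 ± 0.22 (adjusted p = 3.54e-06, edgeR). Cd14, which hands ligands to Toll-like receptors, was at 266, 302, 459.7 and 338 CPM in scramble 1 to 4 and 1178, 1246, 1219 and 1328 CPM in oAb 1 to 4, a log2 fold change of 1.86 ± 0.17, and scramble 3 was its highest control. Tlr2, a receptor for lipoproteins, was at 264, 287, 307 and 306 CPM in scramble 1 to 4 and 655, 646, 833 and 788 CPM in oAb 1 to 4, a log2 fold change of 1.33 ± 0.12. The groups did not overlap for any of the 3 genes.

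Other Toll-like receptors fell. Tlr4, the lipopolysaccharide receptor, was at 88.4, 72.1, 34.3 and 86.9 CPM in scramble 1 to 4 and 29.7, 27.4, 30.6 and 28.3 CPM in oAb 1 to 4. Scramble 3 lay just above the oAb libraries and the other 3 controls far above, and the log2 fold change was -1.28 ± 0.26 (edgeR adjusted p = 0.00251), -1.51 without scramble 3 and -1.17 within the Timm23 set alone (edgeR adjusted p = 0.0694). Tlr8, a receptor for single-stranded RNA, was at 26.2, 18.4, 7.09 and 20.9 CPM in scramble 1 to 4 and 4.84, 4.24, 6.10 and 6.75 CPM in oAb 1 to 4, a log2 fold change of -1.73 ± 0.35 with scramble 3 again the lowest control. Tlr5, the flagellin receptor, had 105 counts in all over the controls and 2 over the oAb libraries, which makes it 47.9-fold (95% counting interval 12.9 to 400.4) lower. Tlr9 had a log2 fold change of 0.21 ± 0.17 and did not pass the test.

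Of 24 cytosolic sensors of nucleic acids and bacterial products tested, 17 were higher and 3 lower, with a median of 1.82. Zbp1, a sensor of left-handed nucleic acids that can start necroptosis, had no control count and was at 13.6 to 15.6 CPM in oAb, at least 308-fold higher. The RNA sensors Ddx58 (RIG-I) and Ifih1 (MDA5) had log2 fold changes of 4.80 ± 0.14 and 4.30 ± 0.14. Nlrp3, the scaffold of an inflammasome, was at 82.6, 71.5, 54.5 and 68.3 CPM in scramble 1 to 4 and 314, 315, 332 and 324 CPM in oAb 1 to 4, a log2 fold change of 2.21 ± 0.13, and Casp1, the protease that this scaffold activates, had 1.68 ± 0.13. Pycard, the adaptor that joins them, was at 49.8, 48.7, 82.9 and 53.6 CPM in scramble 1 to 4 and 31.7, 32.9, 26.1 and 30.4 CPM in oAb 1 to 4 and went the other way, with -0.96 ± 0.18, and Nlrp1b fell with -3.27 ± 0.35. For the DNA sensing pair, the sensor Mb21d1 (cGAS) had 1.02 ± 0.19 and its partner Tmem173 (STING) -0.59 ± 0.12.

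The adaptors and kinases of the MyD88 and TNF pathways rose more often than they fell, with 15 of 30 tested higher, 5 lower and a median of 0.49. Traf1, an adaptor of TNF receptors that is itself a known NF-kB target, was at 0.428, 0.307, 0.886 and 0.316 CPM in scramble 1 to 4 and 248, 264, 251 and 273 CPM in oAb 1 to 4, a log2 fold change of 9.09 ± 0.23. Among the MyD88 branch, Myd88 had a log2 fold change of 1.25 ± 0.11, the kinase Irak2 2.03 ± 0.11, Ripk2 2.18 ± 0.10 and Malt1 3.06 ± 0.19. Irak3, which restrains this branch, was at 12.1, 10.1, 9.15 and 11.96 CPM in scramble 1 to 4 and 69.01, 75.4, 77.2 and 80.02 CPM in oAb 1 to 4, a log2 fold change of 2.80 ± 0.12. Tab1 and Card9, both signalling partners, fell with -0.96 ± 0.12 and -0.92 ± 0.16.

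The largest rises in the NF-kB list were in the inhibitor Tnfaip3 and the cofactor Nfkbiz. Of 18 NF-kB subunits and inhibitors tested, 13 were higher and none lower, and the other 5 did not pass the test. Among these was Rela, the main activating subunit, with 0.21 ± 0.15, which was 0.36 (edgeR adjusted p = 0.00459) without scramble 3. Tnfaip3, the ubiquitin-editing enzyme A20 that shuts the pathway off, was at 8.72, 9.90, 4.87 and 9.87 CPM in scramble 1 to 4 and 155, 149, 149 and 149 CPM in oAb 1 to 4, a log2 fold change of 4.17 ± 0.21 (adjusted p = 2.67e-07, edgeR). Nfkbia, coding for the inhibitor IkB alpha, was at 27.4, 42.9, 43.99 and 36.6 CPM in scramble 1 to 4 and 261, 258, 190.4 and 198 CPM in oAb 1 to 4, a log2 fold change of 2.59 ± 0.18. In oAb the Gm10273 set (oAb 3 and 4) was lower for Nfkbia than the Timm23 set, and every oAb library was above every control. Nfkbiz, a nuclear cofactor that NF-kB needs for a class of late genes, had 3.74 ± 0.21. Of the subunits, Nfkb1 had 1.29 ± 0.08, Nfkb2 2.01 ± 0.15 and Relb 1.18 ± 0.29.

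Genes for proteins that act on cytokine messages rose more often than they fell. Of 14 decay and stability factors tested, 8 were higher and 1 lower, or 3 lower without scramble 1. Zc3h12a, the endonuclease regnase-1 that cuts cytokine mRNAs, was at 9.69, 13.04, 10.04 and 8.29 CPM in scramble 1 to 4 and 105, 100.3, 88.04 and 89.6 CPM in oAb 1 to 4, a log2 fold change of 3.22 ± 0.15. Zfp36 (tristetraprolin), which binds AU-rich elements, had 1.85 ± 0.15. The related Zfp36l1 had -1.77 ± 0.17, but 55.9% of its exon length overlaps a transcript on the other strand, so its count is uncertain.

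The promoters of Nfkbia and Cxcl3 are shown because they hold the NF-kB word (kB, searched by name on both strands, which lies in 6.93% of all 22862 promoters of the table). They are the 250 bases upstream of the RefSeq start, GRCm38.p6, 5′ to 3′ on the gene's strand: Nfkbia at chr12:55492648-55492897 (minus strand) and Cxcl3 at chr5:90785851-90786100 (plus strand). They were chosen after their words and values were seen. Capitals mark the kB word, 29 to 20 bases upstream of the Nfkbia start, and a pair of overlapping matches 73 to 63 bases upstream of the Cxcl3 start. A match is a description of the letters and not a binding site.
Nfkbia: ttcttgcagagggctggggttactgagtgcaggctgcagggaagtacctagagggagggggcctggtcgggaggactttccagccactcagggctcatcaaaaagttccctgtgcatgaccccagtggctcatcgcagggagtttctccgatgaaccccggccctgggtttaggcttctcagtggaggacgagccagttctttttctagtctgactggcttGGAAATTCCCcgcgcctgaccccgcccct
Cxcl3: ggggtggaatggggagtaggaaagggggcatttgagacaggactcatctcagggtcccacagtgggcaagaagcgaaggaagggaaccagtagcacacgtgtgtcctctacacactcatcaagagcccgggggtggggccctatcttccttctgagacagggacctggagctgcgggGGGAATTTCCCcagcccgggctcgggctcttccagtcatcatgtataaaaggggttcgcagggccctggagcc

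Genes known to be induced by interferon rose almost throughout. All 15 tested guanylate-binding proteins (GBPs) and immunity-related GTPases, which attack membranes around intracellular microbes, were higher, with a median log2 fold change of 8.06, or 7.75 with the genes without a control count set at their lower bound. Of 39 OAS, Ifit, Mx and Schlafen effectors tested, 36 were higher and 2 lower, with a median of 4.04. The 15 and 36 held under every scaling of the libraries, except that upper quartile scaling gave 35 for the second. Ifnb1, the gene of interferon beta, was too low to test, with 1 count in all over the controls and 4, 5, 2 and 3 counts in oAb 1 to 4.

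Gbp5 was at 0.0535, 0.0615, 0 and 0 CPM in scramble 1 to 4 and 186, 192, 240.4 and 238 CPM in oAb 1 to 4, 6909-fold (95% counting interval 1912 to 57058) higher. Gbp2 was at 0.428, 0.430, 0.517 and 0.633 CPM in scramble 1 to 4 and 674, 683, 884 and 885 CPM in oAb 1 to 4, a log2 fold change of 10.59 ± 0.21 (adjusted p = 9.35e-10, edgeR). In both, oAb 3 and 4 were above oAb 1 and 2. Even the smallest rise of the 15, Gbp9, was at 5.24, 3.57, 1.18 and 2.28 CPM in scramble 1 to 4 and 48.2, 45.98, 57.3 and 54.1 CPM in oAb 1 to 4, a log2 fold change of 4.03 ± 0.35, with scramble 3 lowest among the controls.

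Ifit1, which binds uncapped viral RNA, was at 1.66, 0.676, 1.55 and 1.14 CPM in scramble 1 to 4 and 489.9, 498, 648 and 629 CPM in oAb 1 to 4, a log2 fold change of 8.81 ± 0.26. Isg15, a ubiquitin-like modifier, was at 1.02, 1.05, 1.62 and 0.949 CPM in scramble 1 to 4 and 464, 487, 492 and 521 CPM in oAb 1 to 4, with 8.74 ± 0.17. Rsad2 (viperin), which makes a chain-terminating nucleotide, was at 2.09, 1.91, 1.03 and 1.01 CPM in scramble 1 to 4 and 1057, 1079, 1261 and 1211 CPM in oAb 1 to 4, with 9.54 ± 0.26. In these 3 genes no control passed 2.09 CPM, a value of Rsad2, and no oAb library was under 464 CPM, a value of Isg15. Mx1 reached 41.5 to 49.9 CPM from 0 to 0.184 CPM in scramble, a log2 fold change of 9.33 ± 0.36. Oas2 and Oas3 had log2 fold changes of 5.18 ± 0.26 and 3.76 ± 0.16.

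Interferon regulatory factors, STATs and Janus kinases were mixed. Of 10 interferon regulatory factors tested, 5 were higher and 2 lower. Irf7, which amplifies interferon transcription, was at 2.19, 2.34, 2.44 and 2.91 CPM in scramble 1 to 4 and 541, 554, 520.4 and 588 CPM in oAb 1 to 4, a log2 fold change of 7.80 ± 0.13 (adjusted p = 5.04e-10, edgeR). Of 10 STATs and Janus kinases, 7 were higher and 2 lower, the latter none within the Timm23 set alone. Stat2, part of the complex that answers type I interferon, had 3.30 ± 0.17, Stat3 1.18 ± 0.11 and Jak2 2.88 ± 0.19.

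Of the 14 tested SOCS and PIAS inhibitors, 4 (28.6%) rose, near the 25.2% of all tested genes, and 1 fell, or 5 without scramble 3. Usp18, which removes ISG15 and blocks the interferon receptor, was at 1.39, 1.05, 1.48 and 0.822 CPM in scramble 1 to 4 and 333, 342, 402 and 399.7 CPM in oAb 1 to 4, a log2 fold change of 8.28 ± 0.19. Socs3, an inhibitor of cytokine receptor signalling, was at 7.97, 10.6, 12.8 and 11.1 CPM in scramble 1 to 4 and 243, 241, 196 and 202 CPM in oAb 1 to 4, with 4.38 ± 0.17. Socs1 was at 0, 0.0615, 0.221 and 0.190 CPM in scramble 1 to 4 and 4.23, 4.99, 1.01 and 1.49 CPM in oAb 1 to 4, a log2 fold change of 4.63 ± 0.78 (adjusted p = 8.69e-04, edgeR). All oAb libraries were above all controls for Socs1, yet the Timm23 set (oAb 1 and 2) was well above the Gm10273 set (oAb 3 and 4). Pias3, an inhibitor of STAT3, fell with -1.11 ± 0.12. The PARP family with Dtx3l, several of them interferon-induced ADP-ribosyl transferases, had 11 of 17 tested genes higher and 3 lower, with Parp14 at 4.75 ± 0.20 and Parp12 at 3.84 ± 0.15.

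The promoters of 3 interferon-regulated genes are shown because they hold the interferon-stimulated response element word (ISRE, GAAANNGAAA) or the gamma-activated word (GAS, TTCNNNGAA), searched on both strands. The 250 bases upstream of the RefSeq start, GRCm38.p6, lie at chr19:34640639-34640888 (plus strand) for Ifit1, chr3:142496684-142496933 (plus strand) for Gbp5 and chr16:10785537-10785786 (minus strand) for Socs1, and they too were chosen after their words and values were seen. Capitals mark the words. Ifit1 holds an ISRE 104 to 95 and another 85 to 76 bases upstream of its start. Gbp5 holds a GAS 245 to 237 bases upstream, an ISRE 165 to 156, a kB word 77 to 68 and a GAS 52 to 44. Socs1 holds a pair of overlapping ISRE matches from 83 to 68 bases upstream.
Ifit1: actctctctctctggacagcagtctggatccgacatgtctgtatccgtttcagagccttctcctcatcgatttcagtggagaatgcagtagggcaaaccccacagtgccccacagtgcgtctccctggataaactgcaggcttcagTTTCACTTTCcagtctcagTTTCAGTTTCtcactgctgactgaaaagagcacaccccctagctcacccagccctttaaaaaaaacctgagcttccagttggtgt
Gbp5: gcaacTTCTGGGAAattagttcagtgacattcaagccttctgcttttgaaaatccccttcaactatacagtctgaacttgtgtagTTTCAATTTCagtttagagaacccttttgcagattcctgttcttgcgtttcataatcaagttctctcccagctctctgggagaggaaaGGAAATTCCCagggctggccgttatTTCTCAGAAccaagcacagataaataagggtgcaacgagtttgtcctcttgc
Socs1: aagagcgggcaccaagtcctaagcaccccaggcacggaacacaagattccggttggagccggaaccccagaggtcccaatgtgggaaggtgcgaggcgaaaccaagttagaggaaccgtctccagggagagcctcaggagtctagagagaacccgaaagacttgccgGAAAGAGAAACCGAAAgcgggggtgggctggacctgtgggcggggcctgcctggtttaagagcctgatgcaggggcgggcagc

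Across all genes, these words were counted in the promoters of 6893 tested genes that have a single promoter in the RefSeq table. Another 1774 genes had several promoters and 2366 had none in the table, and both were left out. The ISRE word was in 15.5% of the 328 promoters of genes at least 4-fold higher, in 2.3% of the 3352 not past the threshold, in 1.66% of the 181 of genes at least 4-fold lower and in 3.11% of all 22862 promoters. The kB word was in 16.5, 7.52, 6.08 and 6.93% of the same classes. The AP-1 word (TGANTCA) was in 11.0, 3.79, 4.97 and 6.96%, and the GAS word in 9.15, 5.58, 4.42 and 7.23%. Base composition moved with these classes: the median GC content was 55.6% for genes at least 4-fold higher, 60% for those not past the threshold and 58.0% for those at least 4-fold lower, and its part in the shares was not tested.

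Read from the word to the response, 206 tested genes held an ISRE, and 93 of them were higher and 36 lower, with a median log2 fold change of 0.22 against -0.07 for genes without it. Among the lists, 8 of 9 GBP and immunity-related GTPase promoters and 13 of 28 OAS, Ifit, Mx and Schlafen promoters held an ISRE. A kB word was in 6 of 12 promoters of NF-kB subunits and inhibitors and in 8 of 18 of the MHC class I list. None of the 19 promoters of quiescence genes held an ISRE, kB, AP-1 or GAS word. Among all tested promoters these words lay in 2.99, 8.62, 3.96 and 5.98%, in the same order. A share for these words together was not taken, and single words were absent from other lists too.

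**Figure D4:**
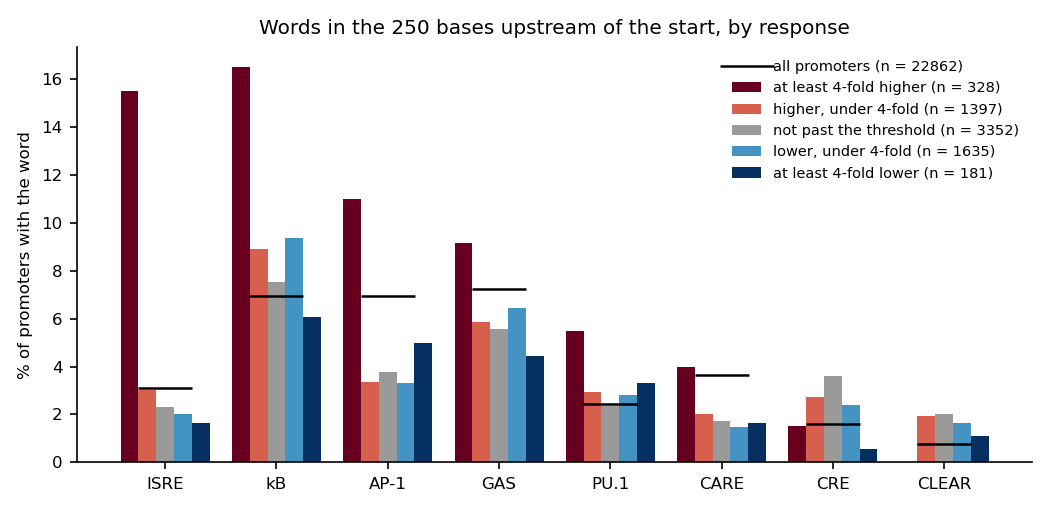
Bars give the % of promoters, 250 bases upstream of the start, that hold each of 8 words at least once on either strand, for tested genes grouped by their response, and black lines the share over all 22862 promoters. The ISRE bar of the genes at least 4-fold higher, 15.5%, stands above the 2.3% of genes not past the threshold, and the classes differ in GC content.

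Some of the rises sat side by side on the chromosome. Runs of at least 4 neighbouring tested genes that all rose at least 4-fold numbered 11, with 51 genes in all, or 9.17% of the 556. No run of falls met the rule. On chromosome 3 a run spans chr3:142493978-142638008 (mm10) with Gbp5, Gbp7, Gbp3, Gbp2b and Gbp2 and log2 fold changes of at least 8.84, the value of Gbp3. On chromosome 19 the Ifit run at chr19:34550694-34650009 holds 6 genes, from Ifit2 to Ifit1, and the Ms4a run at chr19:11404770-11604849 holds Ms4a4c, Ms4a6c, Ms4a6b and Ms4a6d. Chromosome 1 holds neighbouring runs of Ifi200 genes at chr1:173468485-173698395 and chr1:173747293-174031810, and the Sp110, Sp140 and Sp100 run. On chromosome 11 lie 6 Schlafen genes, on chromosome 14 the Phf11 genes, and on chromosome 17 a set of 3 MHC stretches, from Psmb9 to Tap2, from H2-Q4 to H2-Q7 and from H2-T24 to H2-T10. Near-identical copies within these families share sequence, 72.8% of 50-base words for Ifi211 and 51.2% for Ifit3, so counts of single members are uncertain.

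Ifi205 lies in the second Ifi200 run. It was at 0, 0.184, 0 and 0.127 CPM in scramble 1 to 4 and 266, 269, 306 and 298 CPM in oAb 1 to 4, a log2 fold change of 11.69 ± 0.33 (adjusted p = 6.27e-09, edgeR). Sp100, a nuclear body protein, was at 17.02, 12.3, 14.2 and 13.9 CPM in scramble 1 to 4 and 292, 293, 321 and 329.8 CPM in oAb 1 to 4, with 4.43 ± 0.13. All oAb libraries of both genes were above all controls.

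Of 13 cytokines of the IL-1, IL-6, IL-10 and IL-12 families tested, 12 were higher and 1 lower. Il6 was at 0, 0.0615, 0 and 0 CPM in scramble 1 to 4 and 57.7, 57.7, 65.6 and 63.8 CPM in oAb 1 to 4, 3944-fold (95% counting interval 707 to 155823) higher. Il27, a subunit of interleukin 27, was at 0.0535, 0.123, 0 and 0 CPM in scramble 1 to 4 and 27.6, 29.2, 27.2 and 29.3 CPM in oAb 1 to 4, 607-fold (95% counting interval 207 to 2946) higher. Il1rn, the receptor antagonist that opposes both forms of interleukin 1, was at 13.8, 11.9, 15.6 and 14.7 CPM in scramble 1 to 4 and 1316, 1328, 1547 and 1649.8 CPM in oAb 1 to 4, a log2 fold change of 6.71 ± 0.15 (adjusted p = 2.24e-09, edgeR). Unlike Il1b, it was above 10 CPM in every control. Per transcript length, Il1rn was at 7.46 ± 0.783 TPM (SD, n = 4) in scramble and 686 ± 67.5 TPM (SD, n = 4) in oAb, and Il1b at 0.240 ± 0.177 TPM (SD, n = 4) in scramble and 1279.9 ± 134 TPM (SD, n = 4) in oAb. Il10, the anti-inflammatory cytokine, was at 3, 0, 0 and 2 counts in scramble 1 to 4 and at 13, 16, 19 and 21 counts in oAb 1 to 4, a log2 fold change of 3.79 ± 0.55 (adjusted p = 3.34e-04, edgeR). Il16, a chemoattractant for CD4+ cells, fell with -1.59 ± 0.12.

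In the TNF superfamily, 13 of 19 tested genes were higher and 1 lower. Tnf was at 14.3, 15.9, 12.03 and 10.1 CPM in scramble 1 to 4 and 585, 611, 635 and 639 CPM in oAb 1 to 4, a log2 fold change of 5.56 ± 0.16 (adjusted p = 7.24e-09, edgeR). Cd40, a costimulatory receptor, was at 1.34, 1.29, 0.738 and 0.822 CPM in scramble 1 to 4 and 126, 132, 155 and 148 CPM in oAb 1 to 4, with 7.03 ± 0.19. Fas, a death receptor, had 4.76 ± 0.14. Tnfrsf1b, the second TNF receptor, was at 175, 175, 182 and 202 CPM in scramble 1 to 4 and 2429.6, 2526, 2632 and 2749 CPM in oAb 1 to 4, with 3.82 ± 0.11. The groups were far apart in all 4 genes. The single member that fell, Tnfsf13 (-2.37 ± 0.35), shares 60% of its exon length with a gene on the same strand and is uncertain.

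Chemokine ligands rose almost as a class, with 18 of 21 tested higher and 1 lower and a median log2 fold change of 5.99, or 5.90 with the genes without a control count at their lower bound. Ccl5, which attracts T cells, was at 0.482, 0.492, 0.591 and 0.506 CPM in scramble 1 to 4 and 1442, 1545, 1036 and 1227 CPM in oAb 1 to 4, a log2 fold change of 11.30 ± 0.22 (adjusted p = 9.35e-10, edgeR). Ccl2, the main monocyte attractant, was at 19.8, 21.9, 25.8 and 21.5 CPM in scramble 1 to 4 and 1373, 1481, 1359.6 and 1447 CPM in oAb 1 to 4, with 5.99 ± 0.13. Cxcl10, an interferon-induced T cell attractant, was at 2.30, 2.83, 2.88 and 2.78 CPM in scramble 1 to 4 and 964, 980.0, 1021 and 1029 CPM in oAb 1 to 4, with 8.53 ± 0.13. The controls of the 3 genes spanned narrow ranges that no oAb library approached. Cxcl2, a neutrophil attractant, was at 191 to 275 CPM in oAb, lower in oAb 3 and 4, from 0.246 to 0.535 CPM in scramble. Cxcl9 had no control count and was at least 101-fold higher, while Cxcl14 fell with -2.26 ± 0.29.

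Their receptors split. Of 16 chemokine, chemoattractant and sphingolipid receptors tested, 9 were higher and 6 lower. Fpr1, a receptor for formylated bacterial peptides, was 305-fold (95% counting interval 54.3 to 12086) higher, and Fpr2, whose words are shared with other genes over 31.5%, 252-fold (95% counting interval 69.3 to 2085) higher. Ccrl2, which presents chemerin, was at 0.749, 0.738, 0.960 and 0.633 CPM in scramble 1 to 4 and 47.4, 51.3, 51.4 and 57.7 CPM in oAb 1 to 4, a log2 fold change of 6.07 ± 0.15. Beside Cxcr4 and S1pr1, Ccr2, the receptor for Ccl2, fell: it was at 5.24, 4.61, 2.88 and 3.99 CPM in scramble 1 to 4 and 0.336, 0.372, 0.402 and 0.650 CPM in oAb 1 to 4, with -3.22 ± 0.29 (edgeR adjusted p = 1.30e-05), while its ligand rose. C5ar2 had -3.35 ± 0.24. Cx3cr1, the fractalkine receptor of microglia, was at 57.3, 62.9, 57.1 and 69.1 CPM in scramble 1 to 4 and 79.4, 82.96, 109 and 108 CPM in oAb 1 to 4. Every oAb library was above every control, the Gm10273 set (oAb 3 and 4) more so, and the log2 fold change of 0.62 ± 0.13 (edgeR adjusted p = 0.00344) was 0.37 within the Timm23 set alone (edgeR adjusted p = 0.0927).

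Cytokine receptors also moved both ways, 13 higher and 9 lower of 27 tested. Il15ra rose with 2.17 ± 0.23, and Ifngr1, the ligand-binding chain of the interferon gamma receptor, was at 46.7, 46.9, 49.6 and 47.00 CPM in scramble 1 to 4 and 20.2, 20.02, 18.98 and 20.8 CPM in oAb 1 to 4, a log2 fold change of -1.25 ± 0.08. Il17ra fell with -1.37 ± 0.09. Csf1r, the receptor that keeps microglia alive, was at 1339, 1348, 1564 and 1562 CPM in scramble 1 to 4 and 1062, 1099, 1249 and 1287 CPM in oAb 1 to 4. The call of its log2 fold change of -0.31 ± 0.11 (edgeR adjusted p = 0.0419) was lost in 10 of the 17 alternative analyses, among them the 6 that left out 1 of the oAb libraries, scramble 2 or scramble 4, where the value was -0.35 to -0.26.

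All 23 tested genes of MHC class I presentation and the immunoproteasome were higher, with a median of 2.12; upper quartile scaling gave 22 of 23. Tap1, which pumps peptides into the endoplasmic reticulum, was at 15.7, 13.5, 20.9 and 17.8 CPM in scramble 1 to 4 and 166, 179, 167 and 191 CPM in oAb 1 to 4, a log2 fold change of 3.38 ± 0.14 (adjusted p = 9.59e-08, edgeR). B2m, the shared light chain, was at 574, 567, 780.2 and 594 CPM in scramble 1 to 4 and 1323, 1350.2, 1371 and 1379 CPM in oAb 1 to 4, with 1.11 ± 0.12, and scramble 3 was the highest control. The classical heavy chains H2-K1 and H2-D1 had 0.94 ± 0.17 and 0.90 ± 0.19, and the nonclassical H2-T24 5.80 ± 0.11. Of 12 MHC class II and costimulatory genes tested, 7 were higher and 2 lower, or 4 higher within the Timm23 set alone. Cd274 (PD-L1), an inhibitory ligand, had 5.11 ± 0.22, while the inhibitory ligand Vsir (VISTA) fell with -2.17 ± 0.10.

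In complement, 4 of 12 tested genes were higher and 4 lower. C3, the central component, was at 29.3, 26.4, 25.3 and 34.5 CPM in scramble 1 to 4 and 805, 824, 872 and 930.3 CPM in oAb 1 to 4, a log2 fold change of 4.89 ± 0.14 (adjusted p = 5.64e-09, edgeR). The 3 chains of C1q, which starts the classical pathway, all fell from low levels. C1qb was at 4.39, 3.75, 8.27 and 3.54 CPM in scramble 1 to 4 and 0.605, 1.04, 0.872 and 1.10 CPM in oAb 1 to 4, with -2.44 ± 0.34, C1qc had -3.55 ± 0.46, and C1qa, with 3 counts left over the oAb libraries, was 24.01-fold (95% counting interval 7.92 to 119) lower. In C1qb the highest control was scramble 3, and no oAb library reached any control.

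Receptors of the Fc, lectin and paired families rose in 21 and fell in 10 of 36 tested. Clec4e (Mincle), which binds mycobacterial glycolipid and dead-cell ligands, was at 62.4, 54.1, 50.2 and 61.05 CPM in scramble 1 to 4 and 1603, 1599, 1758 and 1679 CPM in oAb 1 to 4, a log2 fold change of 4.86 ± 0.12 (adjusted p = 2.97e-09, edgeR). The Fc receptors for immunoglobulin G went in opposite directions. The high-affinity Fcgr1 was at 32.4, 29.6, 37.4 and 28.6 CPM in scramble 1 to 4 and 318, 334, 334 and 365 CPM in oAb 1 to 4, with 3.40 ± 0.11, and the inhibitory Fcgr2b had 2.87 ± 0.14. The activating Fcgr3 was at 108, 98.4, 149.6 and 107 CPM in scramble 1 to 4 and 15.2, 16.6, 19.2 and 18.6 CPM in oAb 1 to 4, with -2.73 ± 0.16 (edgeR adjusted p = 7.38e-07). Fcgrt, which recycles immunoglobulin G, had -2.41 ± 0.26.

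Trem2, a lipid-sensing receptor that binds amyloid beta, was at 221, 246, 408 and 239 CPM in scramble 1 to 4 and 76.2, 78.6, 62.8 and 68.1 CPM in oAb 1 to 4, a log2 fold change of -1.96 ± 0.20 (adjusted p = 3.29e-05, edgeR). Scramble 3 was highest, and each control was more than 2-fold above every oAb library. Its adaptor Tyrobp had -0.60 ± 0.17, a call that was lost within the Timm23 set alone (-0.76, edgeR adjusted p = 0.0703). Trem1, an amplifying receptor that uses the same adaptor, rose with 2.63 ± 0.18.

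Scavenger and efferocytosis receptors fell more often than they rose, 9 against 6 of 19 tested. Mertk, which binds dying cells through bridging proteins, was at 9.69, 7.63, 5.91 and 8.48 CPM in scramble 1 to 4 and 1.21, 0.744, 1.54 and 1.43 CPM in oAb 1 to 4, a log2 fold change of -2.67 ± 0.24. Its bridging ligands Gas6 and Pros1 had -2.52 ± 0.24 and -1.76 ± 0.30. Axl, the sister receptor of Mertk, rose instead, from 0 to 0.295 CPM in scramble to 1.41 to 2.48 CPM in oAb, with 3.30 ± 0.47. Cd93 was at 660.4, 584, 366 and 660.3 CPM in scramble 1 to 4 and 75.1, 70.4, 77.5 and 79.05 CPM in oAb 1 to 4, with -2.91 ± 0.19, and Mrc1, the mannose receptor, had -2.70 ± 0.29. Msr1, scavenger receptor A, was at 92.8, 81.7, 67.2 and 90.5 CPM in scramble 1 to 4 and 407, 396, 438 and 436 CPM in oAb 1 to 4, with 2.33 ± 0.12. Among integrins and adhesion genes, 11 of 19 tested were higher and 3 lower, with Itgal at 3.94 ± 0.16, Icam1 at 2.35 ± 0.10 and Itga6 at -2.34 ± 0.17. Vcam1, with no control count, was at least 59.2-fold higher.

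Matrix proteases and inhibitors had 21 of 30 tested genes higher and 6 lower, and a median of 2.53. Saa3, an acute-phase protein, was at 4.66, 3.14, 6.79 and 4.18 CPM in scramble 1 to 4 and 2671, 2836, 2378 and 2517 CPM in oAb 1 to 4, a log2 fold change of 9.12 ± 0.26 (adjusted p = 7.00e-09, edgeR). Mmp13, a collagenase, was at 0.107, 0.0615, 0.221 and 0 CPM in scramble 1 to 4 and 36.96, 37.5, 53.3 and 49.6 CPM in oAb 1 to 4, with 8.77 ± 0.35, and Mmp9 had 3.51 ± 0.23. Timp2, an inhibitor of these proteases, was at 24.5, 22.2, 26.9 and 25.4 CPM in scramble 1 to 4 and 2.28, 2.08, 3.08 and 3.12 CPM in oAb 1 to 4, with -3.22 ± 0.16. The oAb libraries were below all controls for Timp2 and above all controls for the proteases. Spp1 (osteopontin) was at 1431 ± 273 TPM (SD, n = 4) in scramble and 4002 ± 137 TPM (SD, n = 4) in oAb, with a log2 fold change of 1.68 ± 0.10.

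The cyclooxygenases moved in opposite directions. Ptgs1, the constitutive form, was at 111, 94.8, 123 and 110.2 CPM in scramble 1 to 4 and 4.23, 5.80, 5.97 and 5.72 CPM in oAb 1 to 4, a log2 fold change of -4.34 ± 0.15 (adjusted p = 1.92e-08, edgeR). Ptgs2, the inducible form, was at 3.59, 2.15, 1.99 and 3.48 CPM in scramble 1 to 4 and 579.5, 539.8, 639.6 and 589 CPM in oAb 1 to 4, with 7.69 ± 0.22 (edgeR adjusted p = 6.40e-09). Each gene was at least 10-fold apart between any control and any oAb library. Ptges, which makes prostaglandin E2, had 4.99 ± 0.24, and Ltc4s, which makes leukotriene C4, -3.05 ± 0.53, with 26.4% of its exon length overlapped on the other strand. Over the 13 eicosanoid enzymes tested, 4 were higher and 6 lower.

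Around nitric oxide, 13 of 25 tested genes of arginine, polyamine, itaconate and tryptophan use were higher and 4 lower. Beside Nos2, the arginine importer Slc7a2 was at 21.9, 21.5, 11.9 and 20.8 CPM in scramble 1 to 4 and 659.5, 642, 794 and 751 CPM in oAb 1 to 4, a log2 fold change of 5.22 ± 0.22. Gch1, which makes the cofactor of nitric oxide synthase, was at 3.16, 4.49, 6.50 and 3.67 CPM in scramble 1 to 4 and 87.96, 92.7, 68.5 and 72.8 CPM in oAb 1 to 4, with 4.19 ± 0.23, and Ass1, which remakes arginine, had 3.48 ± 0.14. Ass1 shares 38.6% of its words with other genes. Arg1, the arginase that competes for the same substrate, had 1 count in all, in oAb 4, and was not tested. Acod1 was at 5.99, 6.46, 6.72 and 9.68 CPM in scramble 1 to 4 and 5473, 5568, 6436 and 6562 CPM in oAb 1 to 4, with 9.70 ± 0.23 (edgeR adjusted p = 2.49e-09). Kmo, of the tryptophan pathway, fell with -2.89 ± 0.24.

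Among receptors for purines, prostanoids and metabolites, adenosine receptors rose and microglial ADP receptors fell. Of 23 tested, 10 were higher and 11 lower. Adora2a, an adenosine receptor that restrains inflammation, was 859.9-fold (95% counting interval 154 to 34006) higher and Adora2b had 4.62 ± 0.22. P2ry12, the ADP receptor that directs microglial processes, was at 8.03, 5.41, 3.84 and 6.64 CPM in scramble 1 to 4 and 1.08, 0.446, 1.01 and 1.30 CPM in oAb 1 to 4, with -2.63 ± 0.33, and P2ry13 was at 7.01, 5.66, 8.71 and 6.90 CPM in scramble 1 to 4 and 0.672, 0.818, 0.536 and 0.585 CPM in oAb 1 to 4, with -3.42 ± 0.21. Entpd1 (CD39), which breaks down ATP and ADP, was at 66.6, 55.4, 64.1 and 63.4 CPM in scramble 1 to 4 and 3.70, 5.88, 4.56 and 6.88 CPM in oAb 1 to 4, with -3.57 ± 0.19 (edgeR adjusted p = 3.72e-07). The groups did not overlap for any of the 3.

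Several genes of glucose entry and early glycolysis rose, while others of these pathways fell. Of 44 genes of glycolysis, the pentose phosphate pathway and the TCA cycle, 20 were higher and 10 lower, or 13 and 6 within the Timm23 set alone. Slc2a1, the main glucose importer, was at 49.5, 59.1, 66.95 and 63.8 CPM in scramble 1 to 4 and 287, 293, 251 and 284 CPM in oAb 1 to 4, a log2 fold change of 2.22 ± 0.11, and Pfkfb3, which makes an activator of glycolysis, had 2.43 ± 0.16. Hk2, the inducible hexokinase, had 1.27 ± 0.10. In the TCA cycle, Fh1 and Idh2 fell with -0.76 ± 0.13 and -0.51 ± 0.09. The largest falls of the list, down to -1.05, were in a pentose phosphate gene and an early glycolysis gene and not in the TCA cycle. Among fatty acid genes, 14 of 35 were higher and 10 lower, the latter 6 within the Timm23 set alone, with Acsl1, which activates fatty acids, at 2.89 ± 0.14, the binding protein Fabp3, whose words are shared with other genes over 29.2%, at 2.98 ± 0.26, and Acadm, of beta oxidation, at -0.96 ± 0.10.

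Of 20 amino acid transporters tested, 13 were higher and 3 lower, the latter 5 without scramble 3. Slc7a11, the cystine importer that supplies glutathione, was at 5.94, 3.94, 2.88 and 5.88 CPM in scramble 1 to 4 and 272, 250.4, 353 and 314 CPM in oAb 1 to 4, a log2 fold change of 5.98 ± 0.25 (adjusted p = 7.93e-08, edgeR). Its partner chain Slc3a2 was at 134, 138, 202 and 155 CPM in scramble 1 to 4 and 413, 425, 416 and 431 CPM in oAb 1 to 4, with 1.42 ± 0.13. Slc15a3, a lysosomal peptide transporter, was at 8.72, 10.8, 15.7 and 11.1 CPM in scramble 1 to 4 and 827, 860.4, 759 and 839.7 CPM in oAb 1 to 4, with 6.15 ± 0.20, and 28.1% of its exon length is overlapped on the other strand. Atf4, the factor of the amino acid response, was at 86.5, 83.6, 76.3 and 63.8 CPM in scramble 1 to 4 and 384, 388, 315 and 328 CPM in oAb 1 to 4, with 2.19 ± 0.13. Mthfd2, of mitochondrial one-carbon metabolism, had 1.62 ± 0.10, Aars 0.95 ± 0.11 and Asns 0.88 ± 0.11, and 18 of the 32 serine, one-carbon and tRNA synthetase genes were higher against 3 lower, or 1 to 7 lower over the alternative analyses.

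The promoter of Slc7a11 is shown because it holds the word of the amino acid response (CARE, TGATGNAA, either strand), which lies in 3.63% of all promoters, in 3.96% of those of genes at least 4-fold higher and in 1.73% of those not past the threshold. It covers chr3:50443614-50443863 (minus strand, GRCm38.p6), and capitals mark the word 66 to 59 and 47 to 40 bases upstream of the start. In the list of serine, one-carbon and tRNA synthetase genes, 5 of 22 promoters held it.
Slc7a11: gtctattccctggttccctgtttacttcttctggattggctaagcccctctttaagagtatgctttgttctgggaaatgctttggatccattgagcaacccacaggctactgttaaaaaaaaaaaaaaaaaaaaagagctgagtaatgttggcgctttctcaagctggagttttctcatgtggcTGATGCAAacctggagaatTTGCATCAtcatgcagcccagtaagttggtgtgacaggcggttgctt

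In iron and heme handling, 12 of 26 tested genes were higher and 5 lower. Hmox1, which breaks down heme, was at 49.98, 53.9, 64.8 and 58.8 CPM in scramble 1 to 4 and 571, 605, 603 and 627 CPM in oAb 1 to 4, a log2 fold change of 3.40 ± 0.11. Cp, an iron oxidase, had 4.80 ± 0.25, and the transporters Slc11a1 and Slc11a2 2.78 ± 0.15 and 2.74 ± 0.09. Slc40a1, the iron exporter ferroportin, was at 13.9, 11.1, 8.34 and 10.3 CPM in scramble 1 to 4 and 3.16, 4.46, 4.83 and 3.96 CPM in oAb 1 to 4, with -1.41 ± 0.19, below all controls in every oAb library.

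Transcription factors of the macrophage lineage were mixed, 8 higher and 9 lower of 30 tested. Maf, of the large Maf family, was at 1.07, 0.922, 1.25 and 1.33 CPM in scramble 1 to 4 and 28.9, 30.6, 24.9 and 23.7 CPM in oAb 1 to 4, with 4.56 ± 0.16 (edgeR adjusted p = 2.59e-08). Cebpa, a myeloid factor, was at 53.5, 83.8, 116 and 77.5 CPM in scramble 1 to 4 and 19.2, 22.1, 14.5 and 15.2 CPM in oAb 1 to 4, with -2.22 ± 0.24. Cebpb, an inflammatory factor of the same family, was at 4.23, 18.8, 31.4 and 14.8 CPM in scramble 1 to 4 and 74.99, 86.5, 21.3 and 23.6 CPM in oAb 1 to 4 and did not pass the test (1.58 ± 0.62, edgeR adjusted p = 0.0578), but did with the library set as a term (2.05, edgeR adjusted p = 0.000199). Within each group the libraries of the Gm10273 set (scramble 1, oAb 3 and oAb 4) were the lowest for Cebpb, and 20.7% of its exon length is overlapped on the other strand. Spi1 (PU.1) had 0.50 ± 0.29 and did not pass, but did without scramble 3 (0.80, edgeR adjusted p = 0.0419).

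Batf2, of the AP-1 family, had no control count, reached 7.89 to 11.2 CPM in oAb and was at least 202-fold higher. Maff had 3.58 ± 0.24 and Atf3 1.90 ± 0.09. Of the early growth response factors, Egr2 rose with 1.96 ± 0.22 and Egr3 fell with -4.02 ± 0.30, and the KLF factor Klf4 fell with -1.99 ± 0.19. The dual specificity phosphatases, which end MAP kinase signalling, and the Sprouty proteins, which restrain receptor signalling, together had 7 of 20 genes higher and 4 lower, the latter 2 without scramble 4. Dusp1 was at 3.42, 3.14, 3.69 and 3.10 CPM in scramble 1 to 4 and 34.8, 32.3, 31.3 and 31.96 CPM in oAb 1 to 4, a log2 fold change of 3.29 ± 0.11, while Dusp6, which acts on ERK, fell with -1.22 ± 0.16.

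Genes of quiescence and growth restraint were the list with the lowest median, -0.95, and 17 of 27 tested were lower and 4 higher. Sesn1, a stress-induced brake on mTORC1, was at 144, 137, 117 and 121 CPM in scramble 1 to 4 and 9.54, 8.18, 9.05 and 8.90 CPM in oAb 1 to 4, a log2 fold change of -3.86 ± 0.11 (adjusted p = 7.24e-09, edgeR). Pik3ip1 was at 14.1, 15.9, 15.9 and 14.6 CPM in scramble 1 to 4 and 0.672, 0.446, 0.402 and 0.455 CPM in oAb 1 to 4, with -4.91 ± 0.18 (edgeR adjusted p = 2.54e-08). Ypel3 was at 21.2, 25.95, 40.9 and 20.9 CPM in scramble 1 to 4 and 1.68, 0.967, 0.604 and 0.520 CPM in oAb 1 to 4, with -4.84 ± 0.38, and scramble 3 was its highest control. Foxo3 had -1.29 ± 0.11, Tob1 -2.34 ± 0.13, Ypel1 -3.62 ± 0.50 and Txnip -0.95 ± 0.13. Gadd45b, a known NF-kB target, had the largest of the 4 rises, 2.76 ± 0.34, and was at 9.74, 19.1, 17.2 and 15.9 CPM in scramble 1 to 4 and 144, 141, 62.3 and 70.3 CPM in oAb 1 to 4, lower in the Gm10273 set of oAb.

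Of 32 DNA repair and p53 pathway genes, 20 were lower and 2 higher. Trp53inp1, a p53 target that promotes cell death, was at 30.3, 21.3, 10.1 and 21.1 CPM in scramble 1 to 4 and 1.21, 0.670, 1.61 and 0.909 CPM in oAb 1 to 4, a log2 fold change of -4.22 ± 0.38. Ddb2, a damage sensor, had -2.80 ± 0.43, with 23.8% of its exon length overlapped on the other strand. Fancd2, of cross-link repair, had -1.48 ± 0.20. Mdm2, the ligase that degrades p53, rose with 1.88 ± 0.13.

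Genes of the BCL2 family, caspases and death receptors, which promote or block cell death, were higher in 15 and lower in 6 of 29 tested. Cflar, which blocks caspase 8, was at 58.8, 56.9, 28.1 and 55.4 CPM in scramble 1 to 4 and 389, 363, 364 and 346 CPM in oAb 1 to 4, a log2 fold change of 2.87 ± 0.22, and Bcl2l1 (BCL-XL) had 1.91 ± 0.13. Bmf, a death-promoting member, was at 28.5, 25.3, 24.1 and 25.4 CPM in scramble 1 to 4 and 1.48, 1.12, 1.41 and 1.17 CPM in oAb 1 to 4, with -4.31 ± 0.14 (edgeR adjusted p = 1.50e-08). Bcl2a1b and Bcl2a1d, survival genes, had 4.92 ± 0.22 and 5.43 ± 0.24, but share 79.2 and 79.5% of their words with near-identical copies, so how their reads divide is uncertain.

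Actin and motility genes were higher in 23 and lower in 3 of 39 tested, the latter 5 without scramble 3. Marcksl1, which binds actin and the membrane, was at 48.4, 75.6, 129 and 89.6 CPM in scramble 1 to 4 and 1550.1, 1694, 1141 and 1344 CPM in oAb 1 to 4, a log2 fold change of 4.07 ± 0.30. Actb was at 1740.0, 2018, 3049.7 and 2534 CPM in scramble 1 to 4 and 6836, 6881, 7137 and 7931 CPM in oAb 1 to 4, with 1.62 ± 0.18. Of 43 histone and DNA modifying enzymes, 13 were higher and 11 lower, the latter 20 without scramble 3, with Hdac5 at -1.88 ± 0.26. Mir155hg, the host transcript of miR-155, had no control count and was at least 54.5-fold higher. Of the 21 long noncoding and microRNA host transcripts tested, 16 did not pass the test, 4 were higher and 1 lower, while 15 were lower within the Gm10273 set alone, where the single control is assumed to vary like the oAb libraries.

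Of 20 genes often used as references, 6 were higher, 2 lower and 12 not past the threshold. Upper quartile scaling gave 6 and 6, and 5 were lower without scramble 3. Gapdh was at 2956, 3011, 5268 and 3667 CPM in scramble 1 to 4 and 4508, 4797, 5122 and 5665 CPM in oAb 1 to 4, with 0.43 ± 0.19 (edgeR adjusted p = 0.0879), and scramble 3 lay among the oAb libraries. Gapdh also shares 24.7% of its words with other genes. Without scramble 3 the value was 0.65 (edgeR adjusted p = 0.000368). Circadian clock genes were 8 higher and 5 lower of 17 tested, and 5 and 7 under upper quartile scaling.

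**Figure D5:**
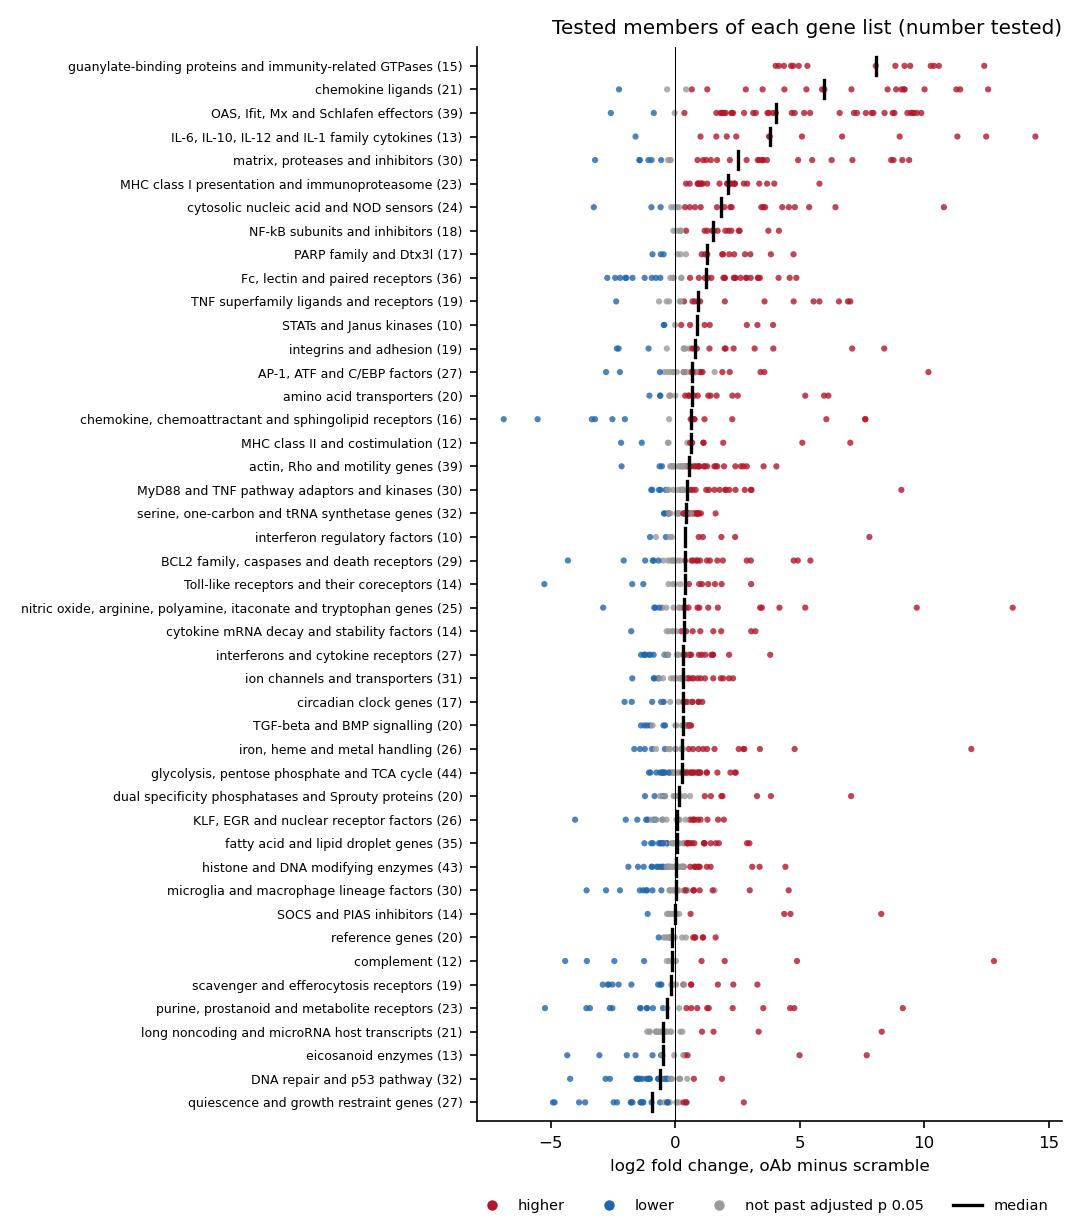
Each row is 1 of the 45 gene lists with its number of tested members, each point the log2 fold change of a member, oAb minus scramble, red for higher, blue for lower and grey for not past the threshold, and the black bar the list's median. The lists are ordered by that median, from 8.06 for the guanylate-binding proteins and immunity-related GTPases to -0.95 for the quiescence genes, and the members were listed with earlier results of these data known.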

How the data were processed

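RNA of IMG cells was made into poly(A)-selected stranded libraries with the TruSeq Stranded mRNA kit, per the labels' protocols. The authors deposited a whole-number read count per gene and library, per the file headers, and a TPM value (transcript abundance scaled by gene length to a fixed total), also per the file headers. The submitters' processing notes name the genome build mm10. How reads were aligned and counted, and whether by strand, was not given in the sources used here. Of 41325 identifiers, 41297 were in GENCODE M21, which gave positions and overlaps.

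Counts were tested in edgeR 4.0.16 (R 4.3.3) with its quasi-likelihood F test (robust fit, two-sided) on the 8 libraries alone. The filter was filterByExpr (minimum count 10), the scaling the trimmed mean (TMM), p-values were adjusted by Benjamini-Hochberg over 11033 genes, and the threshold was 0.05. CPM values were counts over scaled library sizes. A gene with 1 to 3 counts in a group is given as a ratio with its exact 95% counting interval, and a gene with none as a bound from 3 counts over the group. Alternatives were DESeq2 1.42.0, limma voom 3.58.1, other scalings, no filter, a replicate block, the library set, and leaving out each library. Replicates of a group differed beyond sampling noise in every pair. TPM values were described and not tested. On simulated counts for 11033 genes of oAb against scramble the test called 26% of 1.5-fold, 71.4% of 2-fold and 100% of 4-fold changes, and 6.62% of its calls were false.

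Genes named by rule were the 10 largest rises and 10 largest falls (at least 2 CPM in the higher group, groups not overlapping), the 5 largest gains and 5 largest losses of TPM (mitochondrially encoded and predicted genes left out), up to 2 rises and 2 falls per gene list, runs of at least 4 neighbours, and 12 fixed genes. All other genes were named after their values were seen. The members and lists were chosen with earlier results of these data known. Words shared between genes were 50 bases long. The results of some genes are not reported here.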

Additional observations from a re-analysis of the deposited data

Results flagged for a closer look

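In 29 of the 442 groups of 4 libraries examined (the scramble and the oAb group of each named gene) the highest or lowest library lay apart from the other 3, its gap to the nearest of them being a larger part of the group's range than Dixon's 95% limit for 4 values. Chance flags about 1 in 20 groups. Scramble 3 was that library in 17 cases. It was higher than the other 3 controls for Asns at 98.8 CPM against 76.5 to 79.3 CPM, B2m at 780.2 CPM against 567 to 594 CPM and Fh1 at 190.3 CPM against 135 to 138 CPM. The same library was also higher for Ifngr1 at 49.6 CPM against 46.7 to 47.00 CPM, Isg15 at 1.62 CPM against 0.949 to 1.04 CPM and Psmb9 at 14.2 CPM against 8.30 to 9.11 CPM. The same library was also higher for Pycard at 82.9 CPM against 48.7 to 53.6 CPM, Rpl10-ps3 at 2253 CPM against 1104 to 1297 CPM and Trem2 at 408 CPM against 221 to 246 CPM. The same library was also higher for Tyrobp at 602 CPM against 362 to 396 CPM. It was lower than the other 3 controls for Cflar at 28.1 CPM against 55.4 to 58.8 CPM, Dusp6 at 18.4 CPM against 25.7 to 26.3 CPM and Ifih1 at 8.05 CPM against 10.9 to 11.3 CPM. The same library was also lower for Nfkb1 at 122 CPM against 134 to 136 CPM and Slc7a2 at 11.9 CPM against 20.8 to 21.9 CPM. Scramble 1 was lower than the other 3 of its group for Cxcl10 at 2.30 CPM against 2.78 to 2.88 CPM. Library oAb 1 was higher than the other 3 of its group for Tnfaip3 at 155 CPM against 148 to 149.5 CPM. Library oAb 1 was lower than the other 3 of its group for Fh1 at 82.3 CPM against 89.8 to 91.1 CPM and Ptgs1 at 4.23 CPM against 5.72 to 5.97 CPM. Library oAb 3 was lower than the other 3 of its group for Maff at 6.24 CPM against 8.18 to 8.41 CPM. Library oAb 4 was higher than the other 3 of its group for Nos2 at 308 CPM against 276 to 279 CPM. Scramble 4 was higher than the other 3 of its group for Ptges at 0.886 CPM against 0.369 to 0.430 CPM. The remaining cases are single libraries with 1 or 2 counts where the other 3 of the group had none: Adora2a at 0.0738 CPM in scramble 3, Cfb at 0.0633 CPM in scramble 4, Fpr1 at 0.0738 CPM in scramble 3, Il1a at 0.0535 CPM in scramble 1, Il6 at 0.0615 CPM in scramble 2, Nos2 at 0.0615 CPM in scramble 2 and Tlr5 at 0.134 CPM in oAb 3.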

How the results depend on the processing

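The counts of genes higher, lower and past the threshold stayed within 1.5 times their values under the 17 alternatives, except within the Timm23 set alone, with 3792 genes past the threshold and 1816 lower, and with no filter on low counts, with 517 genes at least 4-fold lower. Leaving out 1 library gave 4962 to 7174 genes past the threshold, 2456 to 3503 higher, 2506 to 3671 lower, 550 to 587 at least 4-fold higher and 313 to 344 at least 4-fold lower. The highest count past the threshold was without scramble 3, and 5666 of the 5761 genes were called there too. Within the Gm10273 set alone, where the single control is assumed to vary like the oAb libraries, 7317 genes passed. The cause of these differences was not tested. With the replicate number as a block, 5081 genes passed, 2524 higher and 2557 lower, and 5016 of them were among the 5761; it changed no call of a named gene. No pairing by number was seen: the correlations of the deviations of same-numbered libraries were -0.26, 0.0719, -0.255 and 0.00666, and 0 of 8 libraries correlated best with its own number. The library sets cut across the numbers and scramble 3 stood apart, so this check cannot exclude pairing.

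Of the 225 named and tested genes, 211 kept direction and call in the 17 alternatives, C1qa having no value within the Gm10273 set alone. The genes that changed direction were Rplp1, Rps12-ps3 and Rpl10-ps3, none of them called, which were at 0.185, 0.0794 and 0.155 within the Gm10273 set alone. At this depth a gene with no count in a group of 4 libraries is limited only to 3 counts over the group. Changes of 1.5-fold were mostly missed in the simulation, in which few genes were changed. In the data, 1597 of the called genes differed by less than 1.5-fold.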
